A study of Homo sapiens with 5 samples.

Results

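The 10 imprinted genes H19, IGF2, KCNQ1OT1, PHLDA2, DLK1, MEG3, PEG10, GRB10, MEST and SNRPN were picked by name from the 59098 RefSeq gene records of GRCh38.p14 on the 22 autosomes and the X chromosome. They lie in 6 chromosome regions. H19, IGF2, KCNQ1OT1 and PHLDA2 are at 11p15, DLK1 and MEG3 at 14q32, PEG10 at 7q21, GRB10 at 7p12, MEST at 7q32 and SNRPN at 15q11-q13. 7 of them encode proteins, and the other 3 (H19, KCNQ1OT1 and MEG3) are long noncoding RNAs. Each gene was examined over its window, meaning the gene record with 2 kb added on either side, and the windows measured from 5.15 kb (PHLDA2) to 207 kb (GRB10).

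An imprinted gene is expressed mainly from the copy inherited from one parent, and the choice is set by DNA methylation laid down at an imprinting control region in the egg or sperm. The silent copy of many such genes also carries repressive histone marks. One of these is trimethylation of lysine 27 of histone H3 (H3K27me3), which Polycomb repressive complex 2 writes through its catalytic subunit EZH2. Called intervals carry no information on the parental copy, so neither imprinting nor the loss of imprinting was measured here.

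The cells were HT1376, a line derived from a human bladder carcinoma. They received 250 nM CPI-0209, an inhibitor of EZH2, or its vehicle DMSO, and were fixed after 8 days. Chromatin immunoprecipitation with sequencing (ChIP-seq) against H3K27me3 or EZH2 gave 1 library for each of the groups H3K27me3 CPI-0209, H3K27me3 DMSO, EZH2 CPI-0209 and EZH2 DMSO, and an input library of both treatments was not used here. With 1 cell line and 1 library per group, no difference had a replicate check, no test was possible, and every value is a description of these 4 libraries.

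Each library is known from a list of called intervals with no score or read count, so the sequencing depth is unknown and a place outside every interval may still carry the mark. Every list runs through the 23 chromosomes 2 times, and these runs are called pass 1 and pass 2 here. Intervals overlap between passes and never within one. The sources used here do not say what a pass stands for, and the passes are not treated as replicates. Pass 1 and pass 2 covered 113 Mb and 15.1 Mb for H3K27me3 in CPI-0209, and 201 Mb and 311 Mb for H3K27me3 in DMSO. For EZH2 they covered 137 Mb and 205 Mb in CPI-0209, and 67.9 Mb and 160 Mb in DMSO. For H3K27me3 in CPI-0209, 97.5% of the short pass 2 lay inside pass 1. For EZH2 in DMSO, 33.6% of pass 1 lay on DMSO H3K27me3, against 86.8% of pass 2. Coverage is given as the percent of a window under either pass, followed for the members by the value of each pass where they differ.

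H3K27me3 was called at 7 of the 10 imprinted genes in CPI-0209 cells and at the same 7 in DMSO cells, namely H19, IGF2, KCNQ1OT1, DLK1, MEG3, GRB10 and MEST. PHLDA2, PEG10 and SNRPN had no H3K27me3 interval in either condition, as was the case for 72% of all gene records. The count of 7 corresponds to 70% of the members in each condition (exact Clopper-Pearson 95% interval 34.8 to 93.3%, counting error only). Over all gene records the share with an interval in the window was 16.8% in CPI-0209 and 27.7% in DMSO, with 16.6% marked in both. Over protein-coding records it was 24.5% in CPI-0209 and 34.2% in DMSO. Longer windows meet an interval more readily, and the members' lengths were not matched to those of other genes. The passes gave 7 members in CPI-0209 pass 1 (16.8% of all records), 2 members, DLK1 and MEG3, in CPI-0209 pass 2 (3.94%), 7 in DMSO pass 1 (21.5%) and 6 in DMSO pass 2 (27.5%).

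EZH2 was called at 9 of the 10 in CPI-0209 cells (exact interval 55.5 to 99.7%), all but SNRPN, and at 8 in DMSO cells (44.4 to 97.5%), all but SNRPN and MEST. Of all gene records 43.7% had EZH2 in the window in CPI-0209 and 34.5% in DMSO, and of protein-coding ones 75.1% in CPI-0209 and 58.8% in DMSO. Both CPI-0209 passes held the same 9 members (24.4% of all records in pass 1 and 42.8% in pass 2). In DMSO, pass 1 held 4 members, IGF2, PHLDA2, DLK1 and PEG10 (23.5% of all records), and pass 2 held 8 (25.1%).

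Coverage by H3K27me3 was lower in CPI-0209 than in DMSO at 6 members, higher at 1 (H19) and 0 in both at 3. Over all records it was lower at 25.3% and higher at 0.689%, or at 14928 and 407 of the 16542 with the mark in either condition. By a rule of size (at least 10% of the window covered in DMSO and no more than 1/2 of that in CPI-0209), KCNQ1OT1 and GRB10 were 2-fold lower, 2 of 10 members against 14.9% of all records. Only records marked in DMSO can meet this rule. Of these, 2 of 7 members and 8787 of 16379 records met it. No member was 2-fold higher, against 0.168% of records. The median member coverage was 8.41% in CPI-0209 and 28.6% in DMSO, and the median of the 10 differences was −1.79 percentage points. These medians include the 3 members without the mark. Among the 7 members with it, the middle values were 68.1% in CPI-0209 (MEG3) and 54.2% in DMSO (GRB10). These 2 values belong to different genes, and 6 of the 7 members were lower in CPI-0209. The middle one of the 7 differences was −6.07 points (IGF2). Records with H3K27me3 in either condition had medians of 5.86% in CPI-0209 and 66.3% in DMSO, with a median difference of −25.0 points. EZH2 coverage was 2-fold higher by the mirror rule at KCNQ1OT1 and MEST, again 2 of 10, against 9.69% of all records. No member was 2-fold lower in the merged lists, against 4.1% of records. By any amount EZH2 coverage was higher at 4 members and lower at 1, PEG10, against 23.8% and 17.5% of all records. Its median was 67.7% in CPI-0209 and 56.8% in DMSO, with a median difference of 0.

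**Figure D1:**
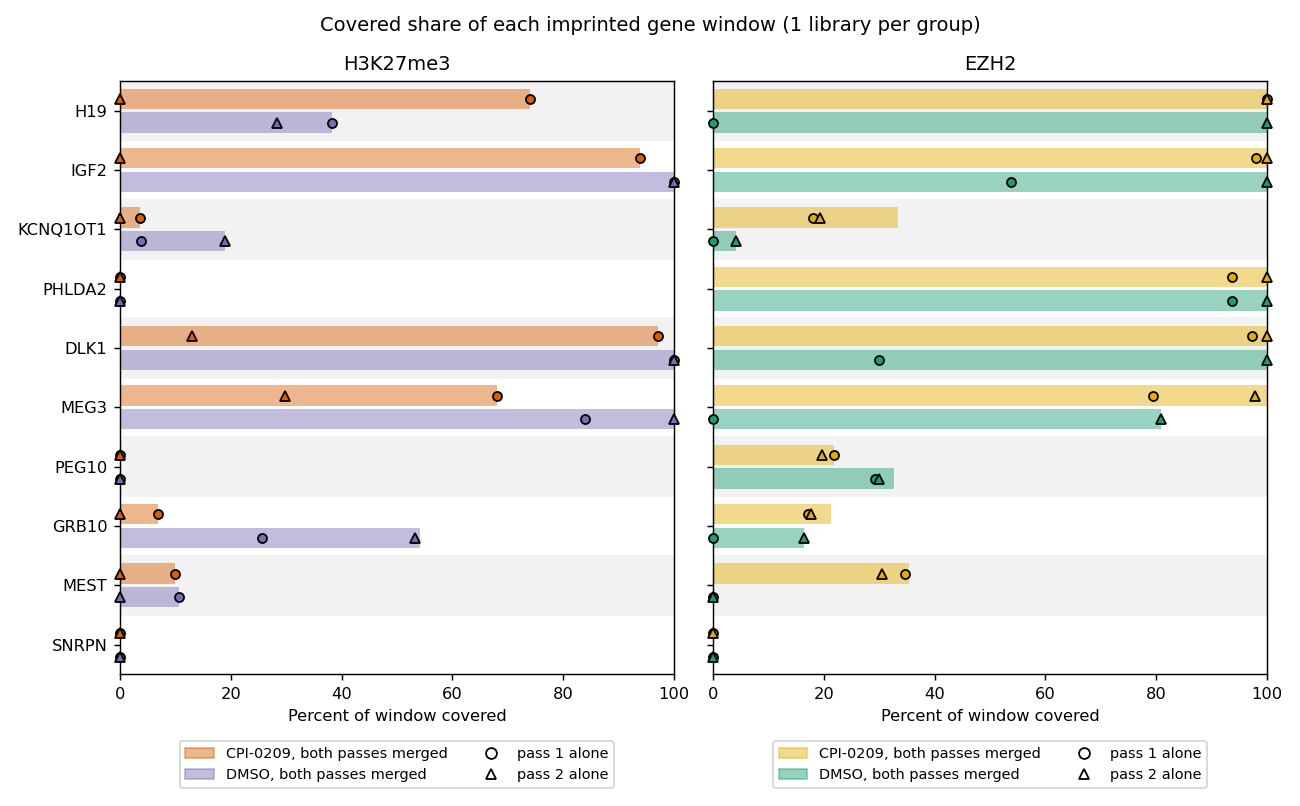
Percent of each gene's window (record with 2 kb either side) covered by H3K27me3 (left panel) and EZH2 (right panel) intervals, for CPI-0209 (upper bar of each pair) and DMSO (lower bar), 1 library each; bars show both passes merged, circles pass 1 and triangles pass 2. GRB10 shows the widest gap for H3K27me3, 6.94% in CPI-0209 and 54.2% in DMSO, and MEST for EZH2, 35.4% in CPI-0209 and 0 in DMSO.

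The first control region of 11p15 governs H19, a noncoding RNA expressed from the maternal copy, and IGF2, a fetal growth factor expressed from the paternal one. H19 was the single member with more H3K27me3 in CPI-0209 than in DMSO. Its window was 74.0% covered in CPI-0209, all of it in pass 1 and none in pass 2. In DMSO it was 38.3% covered, with 38.3% in pass 1 and 28.4% in pass 2. The difference of 35.7 points therefore held against both DMSO passes for pass 1 of CPI-0209, and ran the other way for pass 2, which had no interval in the window.

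The difference at H19 lay at a domain edge. The H3K27me3 domain over the start of H19 spanned chr11:1995801-2041600 in CPI-0209 and chr11:1999401-2048400 in DMSO, so that in CPI-0209 it reached 3.60 kb further into the gene and stopped short on its other side. That stretch, chr11:1995801-1999400, made up nearly all of the 3.80 kb that the 10 windows held in CPI-0209 alone. It contains MIR675, the microRNA gene processed from H19 RNA, at chr11:1996759-1996831 on the minus strand. The mature products are shown because they lie in the stretch marked in CPI-0209 alone, with the seed (bases 2 to 8) in capitals as RefSeq gives them for GRCh38.p14.
hsa-miR-675-5p: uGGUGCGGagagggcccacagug
hsa-miR-675-3p: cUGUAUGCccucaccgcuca
The 2 products have different seeds. Their hairpin was wholly inside H3K27me3 in CPI-0209 and outside it in DMSO, while EZH2 covered it in both.

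The start of H19 itself, chr11:2001266, was inside H3K27me3 in CPI-0209 (pass 1) and in DMSO (both passes). Its promoter window of 300 bases (250 before the start and 50 from it on), chr11:2001217-2001516 on the minus strand, is printed 5′ to 3′ with each CG, the dinucleotide that carries DNA methylation, in capitals.
H19: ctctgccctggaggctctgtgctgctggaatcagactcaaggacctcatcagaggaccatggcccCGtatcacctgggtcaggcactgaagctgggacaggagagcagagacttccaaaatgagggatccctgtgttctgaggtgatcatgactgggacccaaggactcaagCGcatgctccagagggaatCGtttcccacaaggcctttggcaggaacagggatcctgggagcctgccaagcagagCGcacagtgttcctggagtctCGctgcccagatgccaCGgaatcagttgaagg
It holds 6 CG, a motif that reads the same on both strands. Of all 35116 promoter windows of this length in the RefSeq set 96.0% hold at least 1 CG, their median is 14, and 66.3% hold at least as many as H19.

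EZH2 covered the whole H19 window in CPI-0209, in each pass, and the whole window in DMSO, in pass 2 alone. The DMSO domain of 56.2 kb lay entirely inside the CPI-0209 domain of 86.0 kb. The wider EZH2 call in CPI-0209 came from pass 2, while the CPI-0209 pass 1 domain of 50.6 kb was narrower than that of DMSO on both sides. The H3K27me3 call, whose edges in CPI-0209 came from pass 1, was shifted towards the gene.

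IGF2 lay within wide domains in all 4 libraries. H3K27me3 covered 93.9% of its window in CPI-0209 (93.9% in pass 1 and 0 in pass 2) and 100% in DMSO (100% in each pass). The DMSO domain, chr11:2126601-2174600, was 48.0 kb wide and also held the insulin gene INS and TH, the tyrosine hydroxylase gene. In CPI-0209 it was present as 2 pieces that covered 87.5% of it, parted inside IGF2 by a gap of 1.20 kb at chr11:2141401-2142600. EZH2 covered 100% of the window in CPI-0209 (98.0% in pass 1 and 100% in pass 2) and 100% in DMSO (53.8% in pass 1 and 100% in pass 2), with no gap at that place in either merged list. A window wholly under H3K27me3 was found at 0 members in CPI-0209 and at 3 in DMSO (IGF2, DLK1 and MEG3), against 1.9% and 7.88% of all gene records. A window wholly under EZH2 was found at 5 members in CPI-0209 (H19, IGF2, PHLDA2, DLK1 and MEG3) and at 4 in DMSO (the same without MEG3), against 5.94% and 5.56%.

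The second control region of 11p15 lies at the start of KCNQ1OT1, a long noncoding RNA made from the paternal copy, antisense to the potassium channel gene KCNQ1, which silences neighbouring genes on the chromosome it is made from. Its window was 3.55% covered by H3K27me3 in CPI-0209 (3.55% in pass 1 and 0 in pass 2) and 18.9% in DMSO (3.76% in pass 1 and 18.9% in pass 2). The lower value in CPI-0209 held for each pairing of passes, from −18.9 to −0.21 points, and between the pass 1 lists it was −0.21 points. The 2-fold difference thus came from pass 2 of the DMSO list. With only the widest DMSO intervals kept, up to the CPI-0209 length, the difference was −1.46 points and the 2-fold rule was not met. Pass 2 of DMSO held a DMSO-only domain of 12.4 kb inside the gene, chr11:2661801-2674200.

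At the higher-coordinate end of KCNQ1OT1, chr11:2699994, where the antisense RNA begins, H3K27me3 ended close to the gene's start in both conditions. The domain that crosses this end and continues into the rest of KCNQ1 began 1.39 kb inside KCNQ1OT1 in CPI-0209 and 2.79 kb inside it in DMSO. In DMSO it was 122.8 kb wide, of which 90.1% was also called in CPI-0209 as 4 pieces, the widest of 58.0 kb. Most of the transcribed body of KCNQ1OT1 was outside H3K27me3 in both conditions.

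EZH2 over the KCNQ1OT1 window was higher in CPI-0209, at 33.4% (18.0% in pass 1 and 19.2% in pass 2), than in DMSO, at 4.17% (0 in pass 1 and 4.17% in pass 2). All 4 pairings of passes gave a higher CPI-0209 value, by 13.8 to 19.2 points. The CPI-0209 passes marked largely different stretches, and over stretches under both passes the difference was 3.76 points, below the minimum of the 2-fold rule. The added length was in 2 stretches, chr11:2661401-2676200 (14.8 kb) and chr11:2684801-2698000 (13.2 kb). The first of these overlies the interval of H3K27me3 found in DMSO alone. At that place the DMSO lists hold the mark without EZH2 and the CPI-0209 lists hold EZH2 without the mark. Both calls came from pass 2 alone.

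PHLDA2, further along 11p15, encodes a pleckstrin homology domain protein that restrains placental growth in the mouse and is expressed from the maternal copy. No H3K27me3 interval touched its window in any pass. The nearest was 31.9 kb from the record's lower end in CPI-0209 and 36.9 kb in DMSO. EZH2 nevertheless covered the window completely in CPI-0209 (93.6% in pass 1 and 100% in pass 2) and in DMSO (93.6% and 100%). The EZH2 domain spanned chr11:2907601-2937400 in CPI-0209 (29.8 kb) and chr11:2909201-2935000 in DMSO (25.8 kb). PHLDA2 had the same EZH2 coverage in the 2 conditions, in the merged lists and pass by pass.

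**Figure D2:**
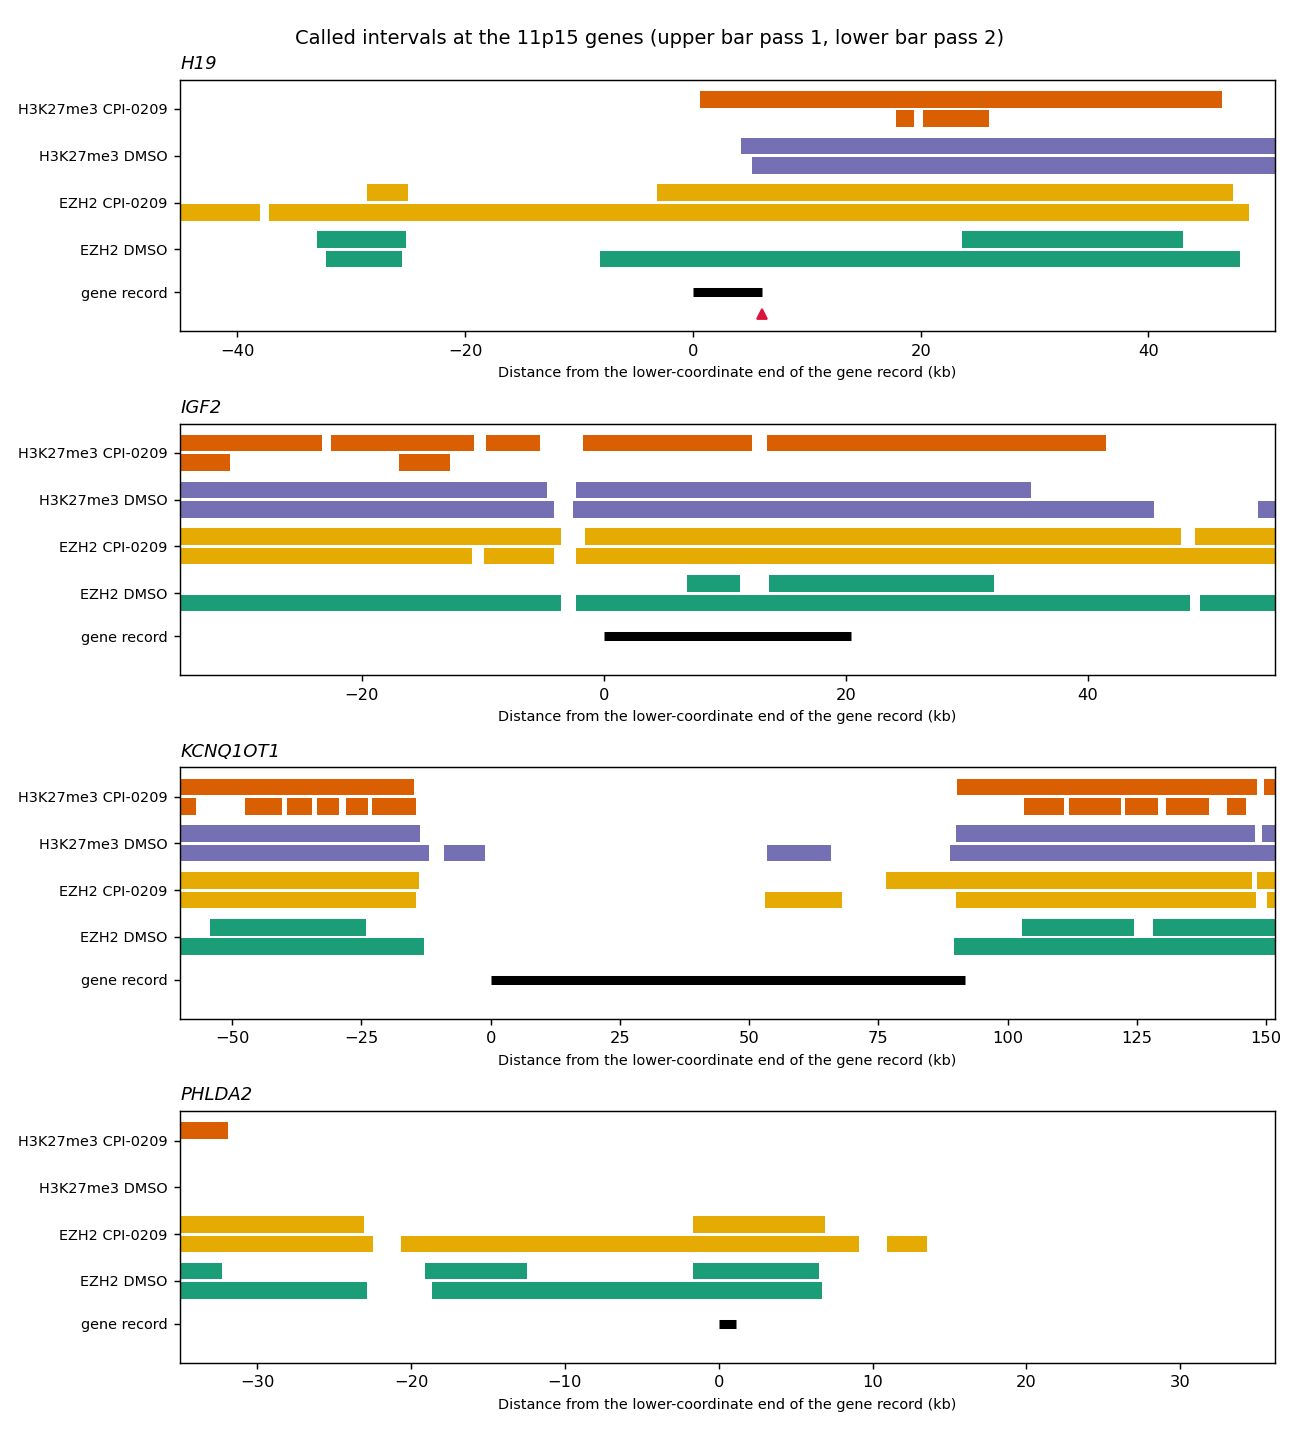
Called intervals at H19, IGF2, KCNQ1OT1 and PHLDA2, drawn to scale against the distance in kb from the lower-coordinate end of each gene record (black bar); rows from top to bottom are H3K27me3 CPI-0209, H3K27me3 DMSO, EZH2 CPI-0209 and EZH2 DMSO, with pass 1 as the upper and pass 2 as the lower bar of a row, and red triangles mark starts listed in the promoter table. The CPI-0209 H3K27me3 domain reaches 3.60 kb further into H19, and PHLDA2 has EZH2 but no H3K27me3.

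DLK1 and MEG3 share the imprinted region of 14q32. DLK1 is a transmembrane protein with EGF-like repeats that acts in the Notch pathway and is expressed from the paternal copy, and MEG3 is a noncoding RNA expressed from the maternal copy. In DMSO one merged H3K27me3 domain of 159.4 kb, chr14:100703801-100863200, held both genes. Neither DMSO pass held it whole. Pass 2 had pieces of 54.0 kb and 104.6 kb, and pass 1 had shorter ones, such as 38.0 kb over DLK1 and 47.2 kb over the start of MEG3. In the merged CPI-0209 list the ground of the 159.4 kb domain held 10 pieces that together covered 73.5% of it, the widest 31.4 kb long.

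DLK1 itself was almost fully covered in both conditions. H3K27me3 covered 97.2% of its window in CPI-0209 (97.2% in pass 1 and 13% in pass 2) and 100% in DMSO (100% in each pass). The difference of −2.77 points was a stretch of 0.424 kb at the outer end of the window. EZH2 covered 100% of it in CPI-0209 (97.2% in pass 1 and 100% in pass 2) and 100% in DMSO (30.0% in pass 1 and 100% in pass 2).

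MEG3 was covered less evenly. H3K27me3 covered 68.1% of its window in CPI-0209 (68.1% in pass 1 and 29.8% in pass 2) and 100% in DMSO (84.0% in pass 1 and 100% in pass 2), and was lower in CPI-0209 in each pairing of passes, with differences of −70.2 to −15.9 points. The stretches marked in DMSO alone were chr14:100828401-100831000 (2.60 kb), chr14:100846801-100855200 (8.40 kb) and the last 1.43 kb of the window from chr14:100861601. EZH2 covered 100% of the window in CPI-0209 (79.4% in pass 1 and 97.9% in pass 2) and 80.9% in DMSO (0 in pass 1 and 80.9% in pass 2). The difference was positive in 3 pairings of passes and −1.54 points in the pairing of CPI-0209 pass 1 with DMSO pass 2.

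The start of MEG3 lay inside H3K27me3 in both passes of CPI-0209 and both passes of DMSO, and inside EZH2 in both passes of CPI-0209 and in pass 2 of DMSO. The RefSeq set lists 3 MEG3 starts within 24 bases of each other, and all 3 were inside each H3K27me3 pass of both conditions. The window of the first, chr14:100825858-100826157 on the plus strand, is shown with CG in capitals.
MEG3: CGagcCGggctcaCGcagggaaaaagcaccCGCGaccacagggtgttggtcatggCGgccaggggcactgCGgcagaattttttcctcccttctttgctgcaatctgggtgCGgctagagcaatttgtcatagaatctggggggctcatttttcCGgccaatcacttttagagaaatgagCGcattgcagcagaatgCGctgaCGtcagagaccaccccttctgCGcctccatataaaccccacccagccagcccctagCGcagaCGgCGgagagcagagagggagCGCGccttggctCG
It holds 19 CG, and 42.9% of all promoter windows hold at least as many. The gap of 8.40 kb in CPI-0209 contains MIR770, a microRNA gene within MEG3 at chr14:100852390-100852487 on the plus strand. Its mature sequence is shown with the seed in capitals.
hsa-miR-770-5p: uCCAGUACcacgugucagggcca
This hairpin was under EZH2 and outside H3K27me3 in CPI-0209, and under H3K27me3 and outside EZH2 in DMSO.

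**Figure D3:**
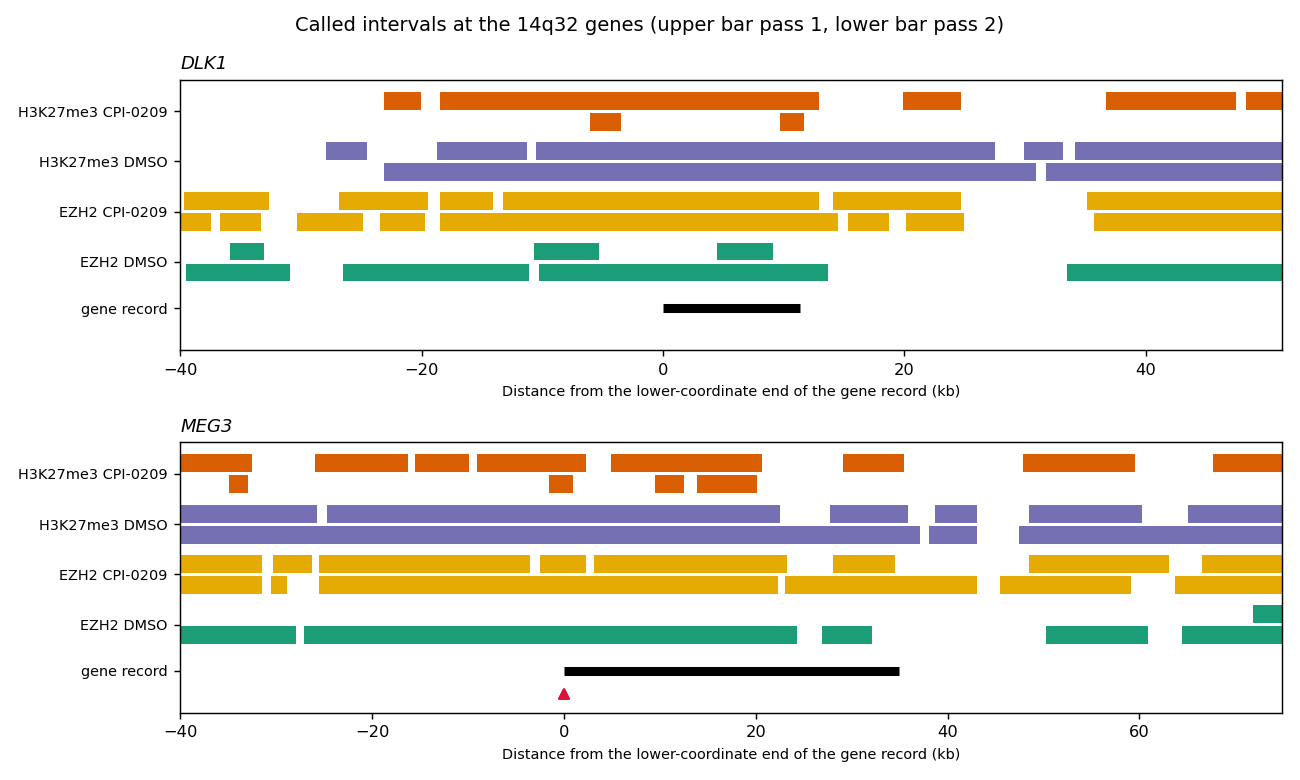
Called intervals at DLK1 and MEG3, to scale, against the distance in kb from the lower-coordinate end of the gene record (black bar), with rows for H3K27me3 CPI-0209, H3K27me3 DMSO, EZH2 CPI-0209 and EZH2 DMSO and with pass 1 above pass 2. H3K27me3 in CPI-0209 forms separate pieces where pass 2 of DMSO is nearly unbroken over the genes and pass 1 of DMSO is in pieces too. The start of MEG3 (red triangle) lies inside both H3K27me3 passes of each condition.

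GRB10 encodes an adaptor protein that binds the insulin and IGF1 receptors and dampens their signal. It is imprinted in a tissue- and isoform-dependent way and has several starts. H3K27me3 covered 6.94% of its window in CPI-0209 (6.94% in pass 1 and 0 in pass 2) and 54.2% in DMSO (25.6% in pass 1 and 53.3% in pass 2). CPI-0209 was lower in all 4 pairings of passes, with differences of −53.3 to −18.6 points, and the 2-fold rule was met in each. With only the widest DMSO intervals kept, up to the CPI-0209 length, the difference was −10.8 points, against −47.3 with both lists whole. Over stretches under both passes it was −24.6 points. The CPI-0209 list had 3 intervals in the window and the DMSO list had 16, which merged into 9 domains. Of those 9 domains, 6 had no CPI-0209 interval.

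The 3 intervals left in CPI-0209 were chr7:50664401-50670800, chr7:50779201-50783400 and chr7:50790201-50794000. The last 2 of these lie over starts of GRB10. Of the 5 starts in the promoter table, all on the minus strand, 3 were inside H3K27me3 in CPI-0209, each in pass 1 and not in pass 2, and all 5 were inside it in DMSO. Over all genes in that table, 65.4% of the starts inside DMSO H3K27me3 were also inside CPI-0209 H3K27me3. The windows are printed to set the starts that were still called beside those that were not, with CG in capitals. Those at chr7:50782847-50783146 and chr7:50792825-50793124 belong to starts inside H3K27me3 in both conditions, and those at chr7:50705252-50705551 and chr7:50732304-50732603 to starts inside it in DMSO alone.
GRB10 start at 50782896: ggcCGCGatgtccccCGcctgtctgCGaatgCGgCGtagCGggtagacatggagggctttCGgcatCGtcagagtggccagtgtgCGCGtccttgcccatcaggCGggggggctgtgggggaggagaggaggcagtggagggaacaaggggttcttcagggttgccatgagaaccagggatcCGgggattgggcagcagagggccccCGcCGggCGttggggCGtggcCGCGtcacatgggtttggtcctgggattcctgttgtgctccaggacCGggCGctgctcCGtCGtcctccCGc
GRB10 start at 50792874: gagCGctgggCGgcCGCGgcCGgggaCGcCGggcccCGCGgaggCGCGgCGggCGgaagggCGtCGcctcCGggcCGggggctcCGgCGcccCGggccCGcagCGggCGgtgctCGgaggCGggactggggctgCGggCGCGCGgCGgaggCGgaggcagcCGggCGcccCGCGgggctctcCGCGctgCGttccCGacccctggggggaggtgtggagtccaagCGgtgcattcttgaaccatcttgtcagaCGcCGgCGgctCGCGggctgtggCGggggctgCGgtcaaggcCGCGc
GRB10 start at 50705301: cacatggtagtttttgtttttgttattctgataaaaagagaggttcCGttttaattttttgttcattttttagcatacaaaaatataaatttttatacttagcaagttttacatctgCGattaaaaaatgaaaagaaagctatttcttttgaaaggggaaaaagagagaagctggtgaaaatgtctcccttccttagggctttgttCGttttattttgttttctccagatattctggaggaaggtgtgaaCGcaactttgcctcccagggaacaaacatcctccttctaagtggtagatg
GRB10 start at 50732353: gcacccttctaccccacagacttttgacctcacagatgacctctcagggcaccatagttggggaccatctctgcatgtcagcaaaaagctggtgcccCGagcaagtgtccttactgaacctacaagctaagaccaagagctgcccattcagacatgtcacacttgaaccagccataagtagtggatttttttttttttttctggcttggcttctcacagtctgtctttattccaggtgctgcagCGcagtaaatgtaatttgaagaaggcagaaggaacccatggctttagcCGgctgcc
The first pair hold 24 and 49 CG, and the remaining start that was called in both conditions, at 50793453, has 44. The 2 starts called in DMSO alone hold 4 and 3 CG. Of all promoter windows 1.60% hold at least 49 CG and 75.5% hold at least 4. This describes 5 starts of 1 gene and was not tested. None of the 2 starts with few CG had an EZH2 interval in either condition, and the other 3 were under EZH2 in both.

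EZH2 over the GRB10 window was 21.3% in CPI-0209 (17.2% in pass 1 and 17.7% in pass 2) and 16.4% in DMSO (0 in pass 1 and 16.4% in pass 2). It was higher in CPI-0209 in all 4 pairings, by 0.772 to 17.7 points. The 4 DMSO domains of EZH2 were 79.3 to 100% covered in CPI-0209. The widest stretch added in CPI-0209, apart from these domains, was chr7:50716801-50726200 (9.40 kb). Most of it overlay a place that had H3K27me3 in DMSO alone. The other added stretches, of 1.2, 1.2 and 1.8 kb, adjoined the DMSO domains. Of the GRB10 H3K27me3 in DMSO, 34.1 kb lay under DMSO EZH2 and 42.3% of that was still called in CPI-0209. The other 78.4 kb lay outside EZH2 and none of it was called.

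MEST, a gene of the alpha/beta-hydrolase family expressed from the paternal copy, carried one short H3K27me3 interval in each condition. H3K27me3 covered 9.88% of its window in CPI-0209 (9.88% in pass 1 and 0 in pass 2) and 10.7% in DMSO (10.7% in pass 1 and 0 in pass 2). The interval was chr7:130491001-130493400 in CPI-0209 and chr7:130491201-130493800 in DMSO. In both conditions it was over the 3 inner starts of the gene (130491329, 130492058 and 130492085) and missed the 2 outer ones (130486175 and 130486347), which were 4.83 and 4.65 kb away in CPI-0209 and 5.03 and 4.85 kb away in DMSO. For contrast, the windows of one inner start, chr7:130491808-130492107, and one outer start, chr7:130486097-130486396, both on the plus strand, are shown with CG in capitals.
MEST inner start at 130492058: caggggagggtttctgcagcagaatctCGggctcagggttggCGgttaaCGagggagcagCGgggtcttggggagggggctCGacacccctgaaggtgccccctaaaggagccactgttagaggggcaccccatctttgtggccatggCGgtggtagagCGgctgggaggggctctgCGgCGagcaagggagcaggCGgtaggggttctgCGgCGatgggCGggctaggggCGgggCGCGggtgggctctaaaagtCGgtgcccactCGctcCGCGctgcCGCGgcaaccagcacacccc
MEST outer start at 130486347: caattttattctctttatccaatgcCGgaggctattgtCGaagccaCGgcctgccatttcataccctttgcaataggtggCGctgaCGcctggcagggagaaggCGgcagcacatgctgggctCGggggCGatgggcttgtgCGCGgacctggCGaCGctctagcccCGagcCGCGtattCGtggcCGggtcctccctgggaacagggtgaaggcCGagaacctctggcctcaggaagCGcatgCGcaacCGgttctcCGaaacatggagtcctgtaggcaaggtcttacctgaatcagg
Each holds 22 CG, a number that 37.7% of all promoter windows reach or exceed.

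EZH2 at MEST was called in CPI-0209 alone. It covered 35.4% of the window in CPI-0209 (34.6% in pass 1 and 30.5% in pass 2) and 0 in DMSO, in both passes. The stretch, chr7:130484801-130493400, spanned all 5 starts and measured 8.60 kb. The nearest EZH2 interval in DMSO was 109.6 kb from the outermost start. EZH2 in the window in CPI-0209 alone was found at 11.8% of all gene records and at 18.8% of protein-coding ones, so 1 in 10 members is close to the share of genes in general. MIR335, a microRNA gene inside MEST, lay outside all intervals.

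PEG10, a retrotransposon-derived gene expressed from the paternal copy and needed for placental development in the mouse, had no H3K27me3 interval, and the nearest was 179.3 kb from the record in CPI-0209 and 124.5 kb in DMSO. EZH2 covered 21.9% of its window in CPI-0209 (21.9% in pass 1 and 19.6% in pass 2) and 32.7% in DMSO (29.2% in pass 1 and 29.9% in pass 2). All 4 pairings of passes gave the lower value to CPI-0209, with differences of −10.4 to −7.35 points. When the longer CPI-0209 list was shortened to its widest intervals, the CPI-0209 interval was lost and the difference was −32.7 points, which would meet the 2-fold rule downward. The interval lay over the lower end of the record, which is also where PEG10 adjoins SGCE. It spanned chr7:94655001-94658800 in CPI-0209 and chr7:94653001-94660000 in DMSO, so it was narrower on both sides in CPI-0209.

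PEG10 and PHLDA2 were the 2 members with EZH2 and no H3K27me3 in both conditions. Over all gene records 14.6% had this combination, and 30.1% of protein-coding ones, so 2 of 10 is near the share of genes in general.

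**Figure D4:**
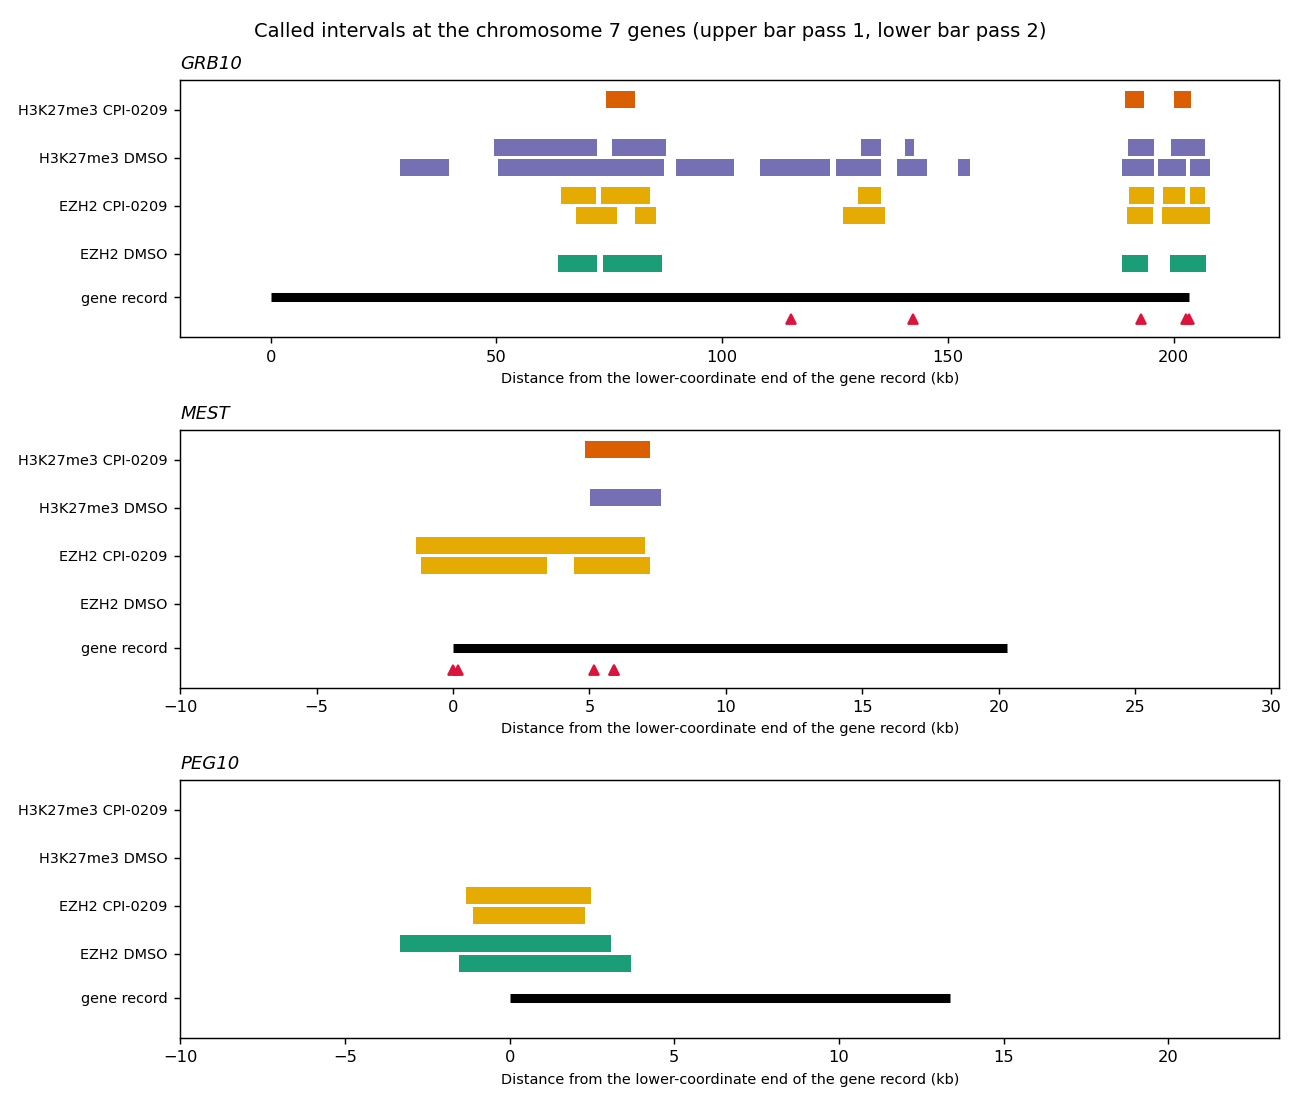
Called intervals at GRB10, MEST and PEG10, to scale, against the distance in kb from the lower-coordinate end of the gene record (black bar), with rows for H3K27me3 CPI-0209, H3K27me3 DMSO, EZH2 CPI-0209 and EZH2 DMSO and with pass 1 above pass 2; red triangles are starts in the promoter table. At GRB10 the CPI-0209 list has 3 H3K27me3 intervals against 16 in DMSO, and MEST has EZH2 in CPI-0209 alone.

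SNRPN, which encodes a protein of the spliceosomal Sm family and overlaps the control region of 15q11-q13, was empty in all lists. Its window of 159 kb held no H3K27me3 and no EZH2 interval in any pass. The nearest EZH2 interval was 459.3 kb from the record in CPI-0209 and 819.7 kb in DMSO, and the nearest H3K27me3 interval was 880.1 kb away in CPI-0209 and 727.1 kb in DMSO. Of all gene records 48% had no interval in any list. The window of the SNRPN start with the most CG, chr15:24954737-24955036 on the plus strand, is printed beside the others as a start with 18 CG that no list marked.
SNRPN: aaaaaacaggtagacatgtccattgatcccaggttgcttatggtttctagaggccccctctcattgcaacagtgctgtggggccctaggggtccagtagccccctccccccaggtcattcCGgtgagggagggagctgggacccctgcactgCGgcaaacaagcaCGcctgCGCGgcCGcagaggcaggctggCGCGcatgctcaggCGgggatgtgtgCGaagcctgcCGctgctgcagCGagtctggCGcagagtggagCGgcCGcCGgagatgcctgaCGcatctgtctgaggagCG
Promoter windows with at least as many CG made up 44.5% of the set. 5 of the 10 members (H19, MEG3, GRB10, MEST and SNRPN) had an entry in the promoter table.

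The relation between the mark and EZH2 was then read over the 10 windows together, 598 kb in all. H3K27me3 covered 92.0 kb in CPI-0209 and 215.7 kb in DMSO, and 40.9% of the DMSO length was still called in CPI-0209, against 35.8% for the whole genome. Between single passes the retained share was 63.6% for pass 1 against pass 1 (53.5% for the genome). For CPI-0209 pass 1 against DMSO pass 2 it was 40.1% (genome 36.0%). For CPI-0209 pass 2 it was 10.0% against DMSO pass 1 (genome 7.46%) and 6.47% against DMSO pass 2 (genome 4.84%). EZH2 covered 182.6 kb in CPI-0209 and 130.2 kb in DMSO, with 95.9% of the DMSO length called again in CPI-0209, against 78.2% for the genome. GRB10 alone supplied 112.5 kb of the DMSO H3K27me3, and without that gene 71.5% of the DMSO H3K27me3 length was called in CPI-0209.

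Of the DMSO H3K27me3 in the windows, 113.2 kb lay under DMSO EZH2 and 102.5 kb outside it. CPI-0209 retained 73.0% of the first and 5.46% of the second, or 86.2% and 23.2% without GRB10. The same shares over the genome were 68.6% and 9.71%. Nearly all H3K27me3 called in CPI-0209, 99.3% of its length in the windows, was under CPI-0209 EZH2, against 92.5% for the genome. KCNQ1OT1 and GRB10, the 2 members that met the 2-fold rule, had most of their DMSO H3K27me3 outside EZH2 (14.1 of 18.1 kb and 78.4 of 112.5 kb), and none of those stretches was called in CPI-0209. At H19, IGF2 and DLK1 all of it lay under EZH2, and 93.9 to 100% was called again. MEST went the other way, with 2.60 kb outside DMSO EZH2, of which 84.6% was called in CPI-0209. MEG3 lay between these, with 73.3% retained under EZH2 and 45.8% outside it. These splits used the merged lists and were not repeated by pass. Pass 1 of DMSO EZH2 covered none of the H19, KCNQ1OT1, MEG3 and GRB10 windows, 53.8% of IGF2 and 30.0% of DLK1. The full EZH2 cover at H19, IGF2 and DLK1 thus came from pass 2. Pass 2 of CPI-0209 H3K27me3 covered none of H19 and IGF2 and 13% of DLK1, so their retained shares came from pass 1.

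In total 127.5 kb of the windows had H3K27me3 in DMSO alone. CPI-0209 EZH2 without DMSO EZH2 lay over 29.8 kb of this (23.4%), EZH2 in both conditions over 27.8 kb (21.8%), DMSO EZH2 without CPI-0209 EZH2 over 2.80 kb (2.20%), and no EZH2 over 67.1 kb (52.6%). Over the genome the 4 shares were 15.2%, 15.3%, 6.34% and 63.2%. The 29.8 kb were spread over KCNQ1OT1 (13.2 kb), GRB10 (12.6 kb) and MEG3 (4.03 kb).

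The 41 neighbours of the members in the 6 regions, a list that holds imprinted and other genes, were set beside them. H3K27me3 was called at 22 of the 41 in CPI-0209 and at 26 in DMSO, against 16.8% and 27.7% of all records. The 4 marked in DMSO alone, against 11.2% of all records, were CD81, which encodes a tetraspanin, PON1, a paraoxonase, ASB4, and GABRA5, a subunit of the GABA-A receptor. By the 2-fold rule 10 neighbours were lower in CPI-0209 and 0 higher, against 14.9% and 0.168% of all records. Of those marked in DMSO, 10 of 26 neighbours and 8787 of 16379 records were lower. The largest differences were at KLF14, a transcription factor gene near MEST (45.3% in CPI-0209 and 100% in DMSO), MAGEL2 at 15q11-q13 (67.3% and 100%), TFPI2, a protease inhibitor gene near PEG10 (23.5% and 55.1%), and RTL1, a retrotransposon-derived gene next to MEG3 (70.7% and 100%), and these 4 were lower in CPI-0209 in each pairing of passes. Coverage was higher in CPI-0209 at 3, namely ASCL2, a transcription factor gene at 11p15 (46.0% and 35.9%), BEGAIN beside DLK1 (84.8% and 78.2%) and MESTIT1, which overlaps MEST (22.1% and 19.9%). None of these 3 kept that direction in all 4 pairings of passes. CPI-0209 was higher in 2 pairings for each, and lower in 1 for ASCL2 and MESTIT1 and in 2 for BEGAIN.

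CDKN1C, the cyclin-dependent kinase inhibitor gene silenced by the KCNQ1OT1 region on the paternal copy, was chosen after its values were seen. H3K27me3 covered all of its window in CPI-0209 (100% in pass 1 and 73.2% in pass 2) and in DMSO (100% in each pass), and EZH2 covered all of it in each pass of both. It thus differed from KCNQ1OT1, whose body was mostly outside H3K27me3. It also had more of pass 2 of CPI-0209 than any of the 4 members at 11p15, all of which had none. This was not particular to CDKN1C, since KCNQ1 (39.7%), TSPAN32 (27.8%) and OSBPL5 (19.6%) also had pass 2 coverage in CPI-0209. The remaining 11p15 neighbours had none.

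EZH2 was called at 32 neighbours in CPI-0209 and at 26 in DMSO, against 43.7% and 34.5% of all records. Over protein-coding records the shares were 75.1% and 58.8%. EZH2 was called at 6 neighbours in CPI-0209 alone and at 0 in DMSO alone, against 11.8% and 2.56% of all records. Of protein-coding records, 18.8% had EZH2 in CPI-0209 alone. The 2-fold rule was met upward by CD81 (96.8% in CPI-0209 and 47.7% in DMSO) and MESTIT1 (91.5% and 0). For CD81 the direction turned with the pass, since the values were 4.75% and 96.8% in pass 1 and pass 2 of CPI-0209, and 6.33% and 47.7% in those of DMSO. MESTIT1 shares the MEST interval, so it adds no separate place. MAGEL2 (100% and 68.1%) and DIO3, a deiodinase gene at 14q32 (86.6% and 68.0%), came next, higher in 4 and 3 pairings of passes and lower in none. The largest differences downward were at MKRN3 (34.5% and 62.8%), TFPI2 (29.9% and 38.0%), DDC, the aromatic amino acid decarboxylase gene beside GRB10 (3.06% and 8.11%), and SGCE, which adjoins PEG10 and shares part of its interval (4.17% and 6.83%). MKRN3 and SGCE were lower in CPI-0209 in all 4 pairings, while TFPI2 was higher in 2 and DDC in 1. Over the neighbours' windows together 69.3% of the DMSO H3K27me3 length was called in CPI-0209, with 89.3% under DMSO EZH2 and 4.69% outside it. In 15q11-q13 MAGEL2 was marked in all 4 lists, and NDN and NPAP1, which lie between it and SNRPN, in none; these last 2 were chosen after their values were seen.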

How the data were processed

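ChIP-seq against H3K27me3 and EZH2 had been run on HT1376 cells, 1 library per group. The deposited values are the positions of called intervals, chromosome, start and end per the file headers, with no score. The submitters' processing notes list the tools BWA and SICER and the build hg38, and give neither versions nor settings. Per the labels' protocols cells were treated for 4 and 8 days, while the design text and the treatment protocol give 8 days; whether the 2 passes of each list relate to this is not stated in those sources.

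Starts count from 0 and all widths are multiples of 200 bp, which was checked on the files. Printed coordinates count from 1. Overlapping intervals of both passes were merged, and the covered percent of each window was computed with Python 3.11.15, pandas 2.3.3 and numpy 2.4.6. A gene counted as marked when at least 1 bp of its window was covered. The coverage code was tested on simulated intervals. Sequences and gene records came from RefSeq GRCh38.p14, the assembly of hg38. Of the 75 symbols used, 2 matched by an older symbol.

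No test was run, because each group has 1 library. Intervals around counts are exact Clopper-Pearson intervals from scipy 1.17.1. Alternatives were no flank or 5 kb of flank, stretches under 2 intervals, gaps under 5 kb joined, the longer list shortened, intervals of at least 2 kb, stricter coverage minimums, and each pass on its own, the last chosen after the data were seen. All 10 members are named. From other lists every gene of a class of up to 5 is named, otherwise the 4 with the largest difference in each direction per mark. CDKN1C, KCNQ1, TSPAN32, OSBPL5, NDN, NPAP1, GNAS-AS1 and DIRAS3 were added after their values were seen. The members, the lists and this rule were chosen with earlier results of these data known. Cells treated for 4 days, H3K27 acetylation and the input were not analysed here.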

Additional observations from a re-analysis of the deposited data

How the results depend on the processing

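No read counts or scores were given, so depth, background and call strictness could not be varied, and the call settings are not stated in the sources used here. No paired analysis was possible because each group has 1 library. Stretches under 2 intervals are those covered in both passes. The split of DMSO H3K27me3 by DMSO EZH2 was made on the merged lists only.

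For H3K27me3 the median member difference was −14.2 points over stretches under 2 intervals, −18.1 for CPI-0209 pass 2 against DMSO pass 1 and −23.6 for CPI-0209 pass 2 against DMSO pass 2. Members marked in CPI-0209 numbered 2 in each of these settings, 4 with a minimum of 10% and 4 with a minimum of 50%, which also left 4 in DMSO. Members lower by 2-fold numbered 5 over stretches under 2 intervals, 1 with the longer list shortened, 1 between the pass 1 lists, and 6 with CPI-0209 pass 2 against either DMSO pass. The retained length was 37.5% without flanks, 10.5% over stretches under 2 intervals, 62.8% with the longer list shortened and 63.6% between the pass 1 lists. It was 10.0% for CPI-0209 pass 2 against DMSO pass 1 and 6.47% against DMSO pass 2. H19 turned to −28.4 points over stretches under 2 intervals, and to −38.3 and −28.4 with CPI-0209 pass 2 against DMSO pass 1 and pass 2, since no pass 2 interval of CPI-0209 lies in its window. MEST turned to 9.88 points with the longer list shortened and with CPI-0209 pass 1 against DMSO pass 2, since neither holds its DMSO interval.

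For EZH2 the median member difference was 21.6 points over stretches under 2 intervals, and 26.3 and 24.9 for CPI-0209 pass 1 and pass 2 against DMSO pass 1. With a minimum of 50%, 5 members were marked in CPI-0209 and 5 in DMSO. In DMSO 4 were marked over stretches under 2 intervals and in pass 1. Members higher by 2-fold numbered 5 over stretches under 2 intervals and 6 for either CPI-0209 pass against DMSO pass 1. The retained length was 93.0% with the longer list shortened (which left 8 members marked in CPI-0209, without PEG10), 90.7% for CPI-0209 pass 1 against DMSO pass 2, 93.9% for CPI-0209 pass 2 against DMSO pass 1 and 89.4% against DMSO pass 2. MEG3 turned to −1.54 points for CPI-0209 pass 1 against DMSO pass 2. Leaving out intervals under 2 kb moved no member result by more than 5 points or by 1.5 times.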

Other observations

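A list of 24 other imprinted or imprint-associated genes outside the 6 regions was read in the same way. H3K27me3 was called at 9 of them in CPI-0209 and at the same 9 in DMSO. Over all gene records the shares were 16.8% and 27.7%, with 16.6% marked in both. H3K27me3 covered less of the window in CPI-0209 at all 9. The same was true of 14928 of the 16542 records with the mark in either condition. By the 2-fold rule 6 were lower and 0 higher, against 14.9% and 0.168% of all gene records. Of those marked in DMSO, 6 of 9 in this list and 8787 of 16379 records were lower. The largest differences were at L3MBTL1, which encodes a methyl-lysine reader (8.68% in CPI-0209 and 93.2% in DMSO), WT1, a zinc finger transcription factor gene (43.9% and 93.4%), USP29 (16.6% and 59.6%) and KCNK9, a potassium channel gene (23.1% and 61.3%), all 4 lower in CPI-0209 in each pairing of passes. At GNAS-AS1 the coverage was 74.4% in CPI-0209 and 100% in DMSO, and at DIRAS3, a Ras-related GTPase gene, 69.2% and 100%; these 2 were chosen after their values were seen. Together the 24 windows retained 36.8% of the DMSO H3K27me3 length.

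EZH2 was called at 17 of the 24 in CPI-0209 and at 15 in DMSO. Over all gene records the shares were 43.7% and 34.5%, and over protein-coding ones 75.1% and 58.8%. The 2 seen in CPI-0209 alone, against 11.8% of all records, were ZDBF2 (6.40% of the window) and INPP5F (1.49%). The 2 that were lower by 2-fold, NNAT and BLCAP, are a nested pair, NNAT within BLCAP, and had no H3K27me3 in either condition. NNAT was 44.9% covered by EZH2 in CPI-0209 (38.7% in pass 1 and 44.9% in pass 2) and 100% in DMSO (100% in pass 1 and 88.3% in pass 2). BLCAP was 48.4% covered in CPI-0209 and 100% in DMSO. Of all gene records 4.1% were lower by this rule. The next largest differences downward were at USP29 (20.2% in CPI-0209 and 24.4% in DMSO) and ZC3H12C (3.16% and 7.28%), and neither kept its direction in all 4 pairings of passes. The largest upward were at WT1 (83.8% and 52.4%), GNAS, which encodes a G protein subunit (48.6% and 34.8%), L3MBTL1 (38.7% and 25.6%) and DIRAS3 (99.7% and 90.8%). GNAS was higher in CPI-0209 in all 4 pairings, and the other 3 were higher in 3 and lower in 1.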
